A study of Mus musculus with 9 samples.

Results

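The genes described here are the long intergenic non-coding RNA (lincRNA) genes expressed in thymic iNKT cells. They were the autosomal rows that the deposited gene table types as lincRNA, and they were selected on a mean FPKM over the 9 libraries of at least 1. FPKM, fragments per kilobase of transcript and scaled to the mapped fragments of a library, scales for transcript length, so levels of different genes can be set side by side. Of 725 lincRNA rows among 21883 genes, 711 were autosomal and 145 of these reached a mean of 1. The mean FPKM chose these genes, so their level is a description and not a result.

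Invariant natural killer T (iNKT) cells are T cells with a nearly fixed antigen receptor that recognises lipids on CD1d. In the thymus they pass from stage 2 to stage 3, where they gain NK cell receptors. RNA was sequenced from thymic iNKT cells of C57BL/6 mice in 3 groups of 3 libraries: wild-type (WT) cells of stage 2, WT cells of stage 3, and *Med23*-deficient cells of stage 2. The WT mice were 6 weeks old, and for the *Med23*-deficient mice the labels state no age and the methods only a range for all mice of the study. MED23 is a subunit of Mediator, the complex that links transcription factors to RNA polymerase II. According to the study's methods, floxed *Med23* was deleted with a *Cd4*-Cre transgene, which acts from the CD4+CD8+ double-positive stage on and therefore in all T cells that pass through it, not only in iNKT cells.

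A lincRNA is a transcript without a long open reading frame, made by RNA polymerase II from a locus outside protein-coding genes, and commonly spliced and polyadenylated. Some lincRNAs act in the nucleus on chromatin or as scaffolds of nuclear bodies, others give rise to small RNAs, and others mark the transcription of an enhancer or of a promoter that fires in both directions. In T cells, many lincRNAs lie beside genes of T cell identity and are made at particular stages.

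Most of the 145 genes have no functional name: 71 carry a Gm number, 40 a Rik name, 10 a clone name and 24 another symbol. In the GENCODE vM21 annotation 142 of them were found by identifier, and 132 were still typed lincRNA there. The other types were bidirectional-promoter lncRNA (5 genes), processed transcript (3), antisense (1) and protein-coding (1, *6330403K07Rik*), while *Gm37387*, *Gm13834* and *Gm37276* were not listed. The median length of the longest transcript was 1609 bases with 2 exons, and 40 genes had a single exon. Exonic bases were shared with a protein-coding gene on the same strand by 4 genes and on the opposite strand by 16, and reads in such stretches could be credited to either gene where strand or splicing did not separate them.

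In the libraries, 15584 to 17333 genes and 136 to 145 of the lincRNA genes were above an FPKM of 0. The 145 genes together held 1.09% to 1.34% of all FPKM. Ribosomal RNA-like models, described below, made up 82.3% to 93.0% of their sum in a library. *Med23* itself was at 5.51, 5.15 and 6.74 FPKM in WT stage 2, 7.14, 4.44 and 6.12 in WT stage 3, and 4.8, 3.6 and 3.92 in *Med23*-deficient stage 2. Its 3 values in the deficient cells were below those of WT stage 2 (log2 fold change -0.41 ± 0.18 SE, adjusted p = 0.552), and a value over the whole gene does not show whether the floxed part was removed. The 4 listed stage 3 markers were all past 2-fold and p of at most 0.05 as higher in WT stage 3. The study tells stage 3 from stage 2 by surface NK1.1, which *Klrb1c* encodes. The difference of *Klrb1c* between the WT stages was thus built into the sort and is no separate check of the labels. In the *Med23*-deficient stage 2 cells 2 of the 4, the NK receptor genes *Klrb1c* (-1.88 ± 0.43, adjusted p = 0.21) and *Klrd1* (-2.08 ± 0.46, adjusted p = 0.204), were past the same limits as lower than in WT stage 2, while *Tbx21* (0.43 ± 0.22) and *Il2rb* (0.08 ± 0.20) were not. Summed markers of double-positive thymocytes reached at most 4.24 FPKM in any library, of B cells 0.5, of myeloid cells 1.69 and of erythroid cells 0.75. Sorted cells were measured in bulk, so fewer cells of a type and less RNA per cell cannot be told apart.

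The promoters of these genes fall along a range from CpG-poor to CpG-rich, and 4 that belong to genes described below are printed for that contrast. RefSeq (GRCm38.p6) gave a promoter, 250 bases before to 50 after the start, for 58 of the 145 genes, and for 38 of these the RefSeq start lay within 50 bases of the start in the gene table. The capitals mark each CG dinucleotide. *AW112010* (chr19:11050517-11050816, minus strand) holds 1 CG, and *Gm10874* (chr5:138363469-138363768, plus strand) holds 7. *Gm16001* (chr5:124112197-124112496, minus strand) holds 34, and *3110083C13Rik* (chr14:57999062-57999361, plus strand) holds 40. The first pair lie 16.9 and 20.2 kb from the nearest protein-coding gene, and the second pair start head to head with one, 33 and 61 bases away. These 4 were picked and do not show a rule. The promoter of *E130102H24Rik* holds 47 CG, yet its nearest protein-coding gene is further off than those of the first pair.
AW112010: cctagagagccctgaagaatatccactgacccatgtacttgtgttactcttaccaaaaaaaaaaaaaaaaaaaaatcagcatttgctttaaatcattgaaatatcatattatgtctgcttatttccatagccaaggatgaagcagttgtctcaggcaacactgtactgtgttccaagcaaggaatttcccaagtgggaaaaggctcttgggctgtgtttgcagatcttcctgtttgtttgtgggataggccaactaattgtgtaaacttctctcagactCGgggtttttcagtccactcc
Gm10874: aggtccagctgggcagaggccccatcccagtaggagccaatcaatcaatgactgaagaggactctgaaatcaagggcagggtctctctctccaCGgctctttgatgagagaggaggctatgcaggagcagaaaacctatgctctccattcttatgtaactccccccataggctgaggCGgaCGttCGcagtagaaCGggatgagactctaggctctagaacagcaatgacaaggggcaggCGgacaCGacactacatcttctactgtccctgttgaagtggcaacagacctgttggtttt
Gm16001: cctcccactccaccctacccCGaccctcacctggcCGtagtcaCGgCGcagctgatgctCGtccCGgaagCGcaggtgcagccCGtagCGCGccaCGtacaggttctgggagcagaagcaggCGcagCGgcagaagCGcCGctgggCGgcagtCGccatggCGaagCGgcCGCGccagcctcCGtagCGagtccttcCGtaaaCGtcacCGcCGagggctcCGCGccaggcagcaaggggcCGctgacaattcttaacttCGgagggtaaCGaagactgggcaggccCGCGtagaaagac
3110083C13Rik: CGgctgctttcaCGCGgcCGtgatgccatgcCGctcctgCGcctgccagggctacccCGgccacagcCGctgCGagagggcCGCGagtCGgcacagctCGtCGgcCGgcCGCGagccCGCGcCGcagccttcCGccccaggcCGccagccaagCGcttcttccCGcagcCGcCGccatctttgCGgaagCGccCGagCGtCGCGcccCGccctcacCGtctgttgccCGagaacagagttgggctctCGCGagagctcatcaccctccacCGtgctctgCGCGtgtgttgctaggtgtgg

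The 58 promoters had a median of 16.5 CG dinucleotides and a GC content of 56.8%, against 7 and 52.7% over all 32851 RefSeq promoters. The 58 belong to genes selected on their expression, with a single promoter per gene. The full set was not filtered on expression and can hold several promoters per gene. These values and the motif shares below are therefore not like for like, and do not set lincRNA genes apart. A Runx motif, TGTGGT on either strand, was in 12 of the 58 (20.7%) and in 16.8% of all promoters. The T-box motif AGGTGTGA was in none of the 58 and in 1.28% of all. The AP-1 motif TGANTCA was in 6.9% and 7.81%, TATAAA in 10.3% and 13.6%, and the Ets motif CCGGAAGT in 5.17% and 3.89%. The motifs were searched as letters on both strands, overlapping matches included, and a match is not a bound site. A pair of promoters with the Runx letters (in capitals, ACCACA being TGTGGT on the other strand) is printed because their genes, described below, differ between the stages in opposite directions: *Gm19585* (chr17:52149039-52149338, plus strand), and *Gm13293* (chr2:11339239-11339538, plus strand).
Gm19585: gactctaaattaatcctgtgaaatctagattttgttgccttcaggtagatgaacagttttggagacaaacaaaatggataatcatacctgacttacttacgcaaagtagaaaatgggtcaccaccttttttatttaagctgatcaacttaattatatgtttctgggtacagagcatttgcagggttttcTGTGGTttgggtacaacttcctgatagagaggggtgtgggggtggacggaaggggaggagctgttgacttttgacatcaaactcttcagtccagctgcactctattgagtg
Gm13293: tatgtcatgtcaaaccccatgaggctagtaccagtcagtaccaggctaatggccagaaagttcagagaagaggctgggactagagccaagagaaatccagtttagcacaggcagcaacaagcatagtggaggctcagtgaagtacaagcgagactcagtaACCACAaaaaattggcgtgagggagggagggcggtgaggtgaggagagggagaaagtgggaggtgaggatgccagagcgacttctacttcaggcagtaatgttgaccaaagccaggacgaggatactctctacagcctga

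The rows typed lincRNA spanned 4 orders of magnitude in level in iNKT cells, with a few very high values and a long tail. The top of that span comes from the ribosomal RNA-like models *Gm26917* and *Gm42418*, described below. Next came *Malat1* with a mean of 1523 FPKM. The mean was at least 100 FPKM for 5 genes, 10 to 100 for 10, 3 to 10 for 46, and 1 to 3 for 84. The median was 2.46 FPKM, against 6.50 for the 9111 protein-coding genes with a mean of at least 1. The other 566 autosomal lincRNA rows had a median of 0.0933 FPKM, and 45 of them nevertheless had a mean of at least 1 in a single group or more. At the threshold, *Gm29156* (1.05), *Gm16576* (1.05) and *Gm36445* (1.01) were just inside, and *Gm37584* (0.997), *Gm45243* (0.991) and *Gpr137b-ps* (0.974) just outside. In all 3 groups 105 of the 145 genes had a mean of at least 1, and 40 fell below 1 in some group.

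**Figure D1:**
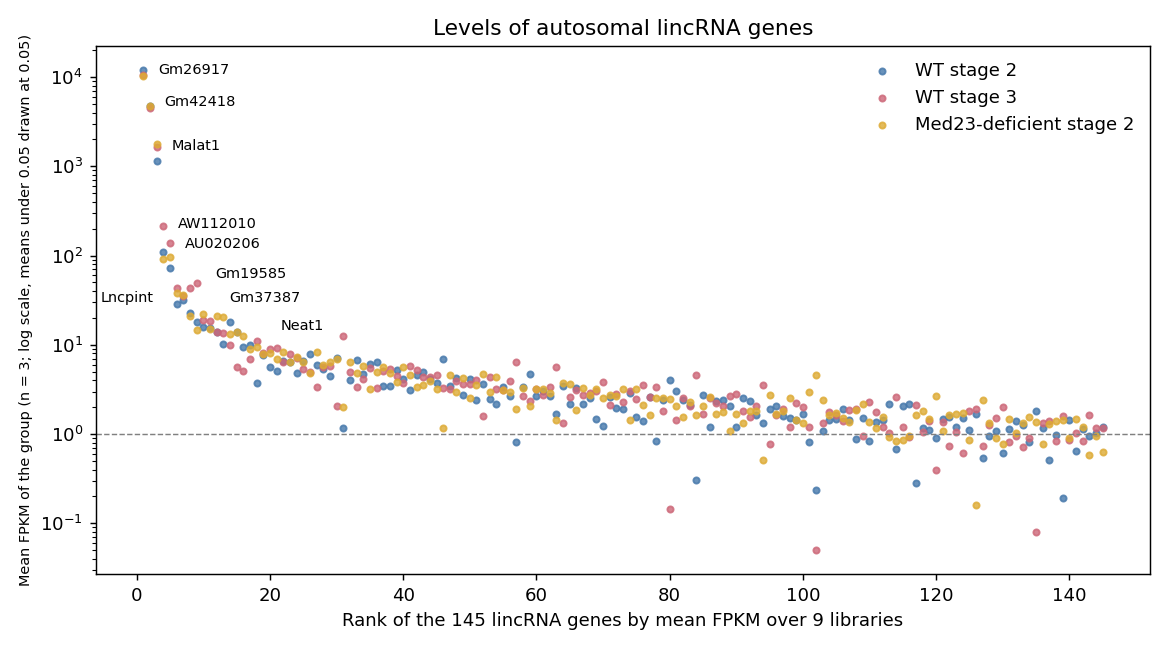
Mean FPKM of each lincRNA gene in the 3 groups named in the legend (n = 3 libraries each, log axis), with the 145 genes ranked by their mean over 9 libraries and a dashed line at 1 FPKM. 5 genes lie above 100 FPKM, and towards the low ranks on the right the group means of single genes part, with 40 genes under 1 in some group.

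The most abundant values came from ribosomal RNA-like models and from *Malat1*, and *Gm26917*, *Gm42418* and *Malat1* together held 95.4% of the summed mean FPKM. *Gm26917*, *Gm42418* and *AY036118* are neighbouring models on chromosome 17 that lie in a ribosomal RNA repeat, and their reads can belong to ribosomal RNA copies elsewhere. *Gm26917* ranged from 9472.25 to 13744.5 FPKM over the 9 libraries, *Gm42418* from 4065.48 to 5479.27 and *AY036118* from 19.3 to 62.2. The groups overlapped for all 3 models in both comparisons. These models made up 82.3% to 93.0% of the lincRNA genes' summed FPKM in a library, with the highest share in WT stage 2 replicate 1.

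*Malat1*, a nuclear RNA of splicing speckles, was at 821.26, 1326.37 and 1336.22 FPKM in WT stage 2, at 1338.33, 1511.39 and 2031.17 in WT stage 3, and at 1535.84, 1494.05 and 2316.59 in *Med23*-deficient stage 2. WT stage 2 was the lowest group and overlapped neither of the others, but the difference missed the test in both comparisons (0.50 ± 0.28 with adjusted p = 0.536, and 0.62 ± 0.29 with adjusted p = 0.564). Without WT stage 2 replicate 1 the log2 fold changes were 0.27 and 0.39, and without replicate 3 of WT stage 3 or of the deficient cells they were 0.33 and 0.42; a Ballgown-style linear model, which takes library size as a term, gave 1.01 in WT stage 3, which missed the p limit, and 1.07 in the deficient cells, past the fold and p limits. *Neat1*, the scaffold of paraspeckles, lies next to *Malat1* on chromosome 19 at 4.07, 4.87 and 7.99, then 6.04, 10.2 and 10.99, then 5.34, 7.29 and 11.36 FPKM in the same order of groups. Its groups overlapped, with the highest value of each group in replicate 3, as for *Malat1*; replicate 3 also had the most genes above 0 in each group, and the part of this in the levels was not tested.

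Among the other abundant lincRNAs, *AW112010* and *AU020206* were higher in WT stage 3 by just under the 2-fold limit. *AW112010*, an RNA induced in activated and interferon-exposed immune cells, was at 109.16, 123.56 and 96.3 FPKM in WT stage 2, 284.11, 203.83 and 156.84 in WT stage 3, and 84.44, 107.61 and 82.43 in *Med23*-deficient stage 2. All WT stage 3 libraries stood above all stage 2 libraries of either genotype (0.93 ± 0.23, adjusted p = 0.137). For *AU020206* the values were 56.08, 66.37 and 95.87, then 102.81, 124.14 and 183.4, then 68.83, 79.02 and 140.01. WT stage 3 stood above WT stage 2 (0.89 ± 0.28, adjusted p = 0.232), while the deficient cells overlapped both, with replicate 3 again the highest of each group. The 2-fold limit was passed by *AW112010* without WT stage 2 replicate 2 (1.02) or WT stage 3 replicate 3 (1.13), and by *AU020206* when WT stage 2 replicate 3 (1.11) or WT stage 3 replicate 1 (1.08) was left out.

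*Gm19585*, transcribed away from *Satb1*, the chromatin organiser of thymocytes, whose start lies 316 kb off, was at 24.83, 25 and 19.01 FPKM in WT stage 2, 52.71, 41.28 and 35.61 in WT stage 3, and 19.16, 21.47 and 23.07 in *Med23*-deficient stage 2. The WT stage 3 values were clear of the others (0.88 ± 0.18, adjusted p = 0.0879), and the deficient cells sat within the range of WT stage 2. Without WT stage 3 replicate 3 it reached the 2-fold limit. Its promoter, printed above, has 2 CG dinucleotides. *Lncpint*, a p53-induced RNA, ranged from 18.99 to 57.64 FPKM over all libraries with overlapping groups.

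The listed lncRNAs among the 145 genes, those with known roles, did not pass the fold and p thresholds in either comparison. The snoRNA hosts are spliced genes whose introns release the small RNAs that guide ribosomal RNA modification; of 14 listed hosts with a mean of at least 1, of which *Snhg6*, *Snhg12*, *Snhg20* and *Epb41l4aos* are among the 145, 0 passed in either comparison, beside 5.47% and 3.19% of all genes with a mean of at least 1. *Epb41l4aos* was at 22.55, 13.14 and 18.62 FPKM in WT stage 2 and 15.64, 6.7 and 7.9 in WT stage 3, overlapping groups (-0.84 ± 0.34, adjusted p = 0.371), and it was past the fold and p limits without WT stage 2 replicate 2 (-1.04) or WT stage 3 replicate 1 (-1.18). *Snhg12* was at 8.58 FPKM on average, *Snhg20* at 6.45 and *Snhg6* at 4.50. The microRNA hosts *Mir142hg* (miR-142, abundant in blood cells) and *Mir17hg* (the miR-17 to miR-92 cluster) averaged 18.96 and 1.33 FPKM. *Mirt1*, a myocardial infarction associated transcript and no microRNA host despite its place in that list, averaged 4.28 FPKM. *1700020I14Rik*, known as Cyrano and required for the decay of miR-7, was at 13.49, 17.33 and 15.42 FPKM in WT stage 2, 17.94, 19.14 and 18.9 in WT stage 3, and 15.74, 13.28 and 15.56 in the deficient cells. Its WT stage 3 values lay above all stage 2 values, by an amount that missed the test (0.27 ± 0.12, adjusted p = 0.408). *Pvt1*, downstream of *Myc*, averaged 1.32 FPKM with overlapping groups.

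The spread between replicates was wide for these RNAs. The median coefficient of variation within a group was 20.2% for lincRNA genes at 10 FPKM or more, 31.1% at 3 to 10 and 47.8% at 1 to 3, against 12.8%, 19.5% and 31.7% for protein-coding genes at the same levels. A value of 0 in some library was seen for 22 lincRNA genes, 21 of them with a mean of 1 to 3. The 5 genes with the largest range within a group relative to its mean, among those at 5 FPKM or more there, were *Gm29362*, *Gm27019*, *Gm13834*, *RP23-353K11.3* and *1700056N10Rik*. *Gm29362*, a single-exon model of 133 bases that overlaps *Alkbh1* on the same strand, was at 9.77, 1.44 and 30.95 FPKM in *Med23*-deficient stage 2. *Gm27019* was at 4.67, 1.52 and 11.38 in WT stage 3, and *Gm13834* at 7.12, 4.13 and 17.02 in the deficient cells. *1700056N10Rik* was at 2.51, 6.2 and 10.58 in WT stage 2.

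The comparison of WT stage 3 with WT stage 2 asks which of these RNAs differ with the last step of iNKT maturation. 10 of the 145 lincRNA genes passed a fold change of at least 2 with an unadjusted p of at most 0.05, 7 higher and 3 lower in stage 3. That is 6.90% of the lincRNA genes, against 5.47% of all genes with a mean of at least 1, where 2.67% passed as higher and 2.79% as lower. Over all 20689 genes tested, many of them near 0 FPKM, 3.6% passed. The filter on the mean favours genes that differ: 7 of the 10 had a mean under 1 in the group where they were low, and so entered through the other group or the deficient cells. Leaving out replicate 3 of WT stage 2 gave 16, and leaving out replicate 1 of WT stage 3 gave 18. The Ballgown-style linear model gave 11, but of the 10 it lost *RP23-353K11.3*, *Gm12847*, *4933406P04Rik*, *Gm13293* and *E130102H24Rik*. By an adjusted p of at most 0.05 in limma 3 genes were called, *Gm37387*, *Gm10874* and *A430106G13Rik*, where 2.37% of genes with a mean of at least 1 were; without any 1 of the 6 libraries 0 or 1 remained past that limit, and the largest adjusted p values of these 3 were then 0.0643, 0.127 and 0.112. With the replicate number as a block 0 lincRNA genes were past the adjusted limit. The groups did not overlap for 29 lincRNA genes (20.0%), against 24.4% of all genes at a mean of at least 1. The median log2 fold change was 0.16, against -0.05 for all genes with a mean of at least 1, and leaving out a library gave -0.0063 (WT stage 2 replicate 1), 0.10 (its replicate 2) and 0.08 (WT stage 3 replicate 3).

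**Figure D2:**
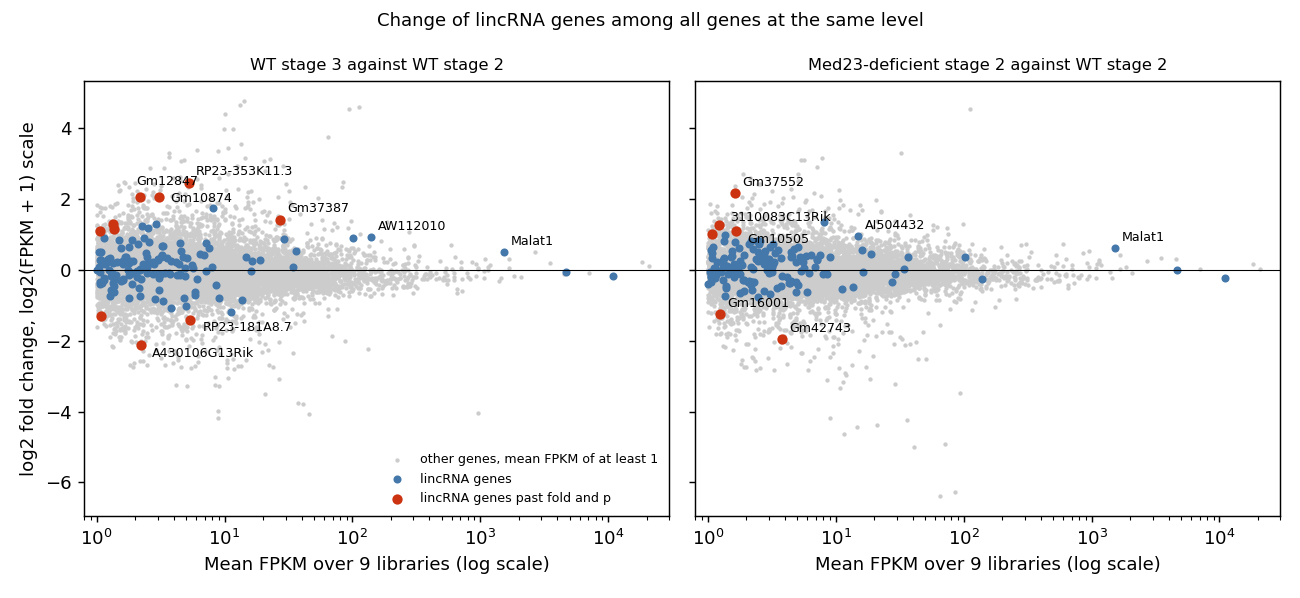
log2 fold change on the log2(FPKM + 1) scale against mean FPKM over 9 libraries (log axis), between the WT stages (left) and between the stage 2 genotypes (right); grey points are all other genes with a mean of at least 1, blue points lincRNA genes, and red points the lincRNA genes past the fold and p thresholds. Of the 15 lincRNA genes past them in either comparison, *Gm37387* is the most abundant, and the others lie under 10 FPKM.

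The gene with the most precise change was *Gm37387* (chr19:11465250-11467055, plus strand), 1.70 kb downstream of *Ms4a4b*, a membrane protein gene of T cells, and on the same strand. It was at 17.35, 16.4 and 19.73 FPKM in WT stage 2, 44.05, 50.95 and 53.54 in WT stage 3, and 13.25, 9.76 and 20.81 in *Med23*-deficient stage 2. All stage 3 values lay above all stage 2 values of either genotype (1.42 ± 0.11, adjusted p = 0.0105). *Ms4a4b* itself was higher in WT stage 3 (0.88 ± 0.14, adjusted p = 0.0465). A transcript running on from *Ms4a4b* and a separate lincRNA were not told apart by these gene values.

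*Gm10874* (chr5:138363719-138388287), 20.2 kb downstream of *PVRIG*, an inhibitory receptor gene of T and NK cells, was at 0.51, 0.55 and 1.38 FPKM in WT stage 2, 6.6, 5.68 and 7.22 in WT stage 3, and 2.48, 0.72 and 2.55 in *Med23*-deficient stage 2. Stage 3 stood clear of both other groups (2.08 ± 0.26, adjusted p = 0.0286). *PVRIG* differed in the same direction (2.20 ± 0.31, adjusted p = 0.0368). The *Gm10874* promoter is among those printed above.

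*RP23-353K11.3* (chr10:19486715-19507311) had the largest log2 fold change of the 10 with a pseudocount of 1, though not with one of 0.1 (3.19, against 4.25 for *Gm12847* and -4.22 for *A430106G13Rik*) or without WT stage 3 replicate 3 (1.94). It lies 84.6 kb upstream of *Ifngr1*, which encodes the ligand-binding chain of the interferon-γ receptor, on the same strand. The values were 0.97, 0.67 and 1.85 FPKM in WT stage 2, 7.06, 7.15 and 23.32 in WT stage 3, and 1.58, 0.59 and 3.93 in *Med23*-deficient stage 2, so that stage 3 was higher throughout with replicate 3 far above the rest (2.47 ± 0.49, adjusted p = 0.0833). *Ifngr1* was also higher in stage 3 (2.03 ± 0.12, adjusted p = 0.00442).

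The other 4 genes higher in stage 3 were at 1.06 FPKM or less in every WT stage 2 library. *Gm12847*, 29 bases downstream of *Atpaf1*, stood at 0.0, 0.0 and 0.92 FPKM in WT stage 2 but at 5.08, 6.75 and 1.9 in WT stage 3 (2.05 ± 0.48, adjusted p = 0.12). *Lppos*, antisense to *Lpp*, was at 0.43, 0.0 and 0.42, then 2.52, 1.7 and 2.17 (1.30 ± 0.24, adjusted p = 0.0703). *4933406P04Rik*, which starts head to head with *Bclaf1* across 175 bases, was at 0.96, 0.0 and 1.06, then 2.21, 3.24 and 2.37 (1.17 ± 0.35, adjusted p = 0.22), and without WT stage 2 replicate 2 its log2 fold change was 0.83 and missed the fold limit. For *E130102H24Rik* the values were 0.06, 0.1 and 0.41, then 1.05, 1.23 and 2.45 (1.09 ± 0.26, adjusted p = 0.131), with 0.86 without WT stage 3 replicate 3. In all 4 the WT groups did not overlap. Of their neighbours, *Atpaf1* (-0.24 ± 0.24), *Lpp* (0.28 ± 0.23) and *Bclaf1* (-0.12 ± 0.13) did not pass the test (adjusted p = 0.684, 0.667 and 0.717), and *Ak4*, 62.5 kb from *E130102H24Rik*, had a mean of 0.04 FPKM.

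3 lincRNA genes were lower in stage 3, and for *A430106G13Rik* and *Gm13293* the stage 3 values were near 0. *A430106G13Rik* (chr1:137966531-137969918), a single-exon gene of 3388 bases 92.9 kb from *Ptprc*, the CD45 gene, was at 5.49, 3.24 and 3.35 FPKM in WT stage 2, 0.14, 0.01 and 0.28 in WT stage 3, and 3.47, 2.48 and 1.41 in *Med23*-deficient stage 2. Every stage 2 library of either genotype was above every stage 3 library (-2.11 ± 0.27, adjusted p = 0.0286). *Ptprc* was not lower (0.50 ± 0.09, adjusted p = 0.059).

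*RP23-181A8.7* (chr9:44011735-44041059) starts 2.33 kb from the start of *Thy1*, the T cell surface glycoprotein gene, and runs in the other direction. It was at 6.1, 6.77 and 8.32 FPKM in WT stage 2, 1.77, 2.92 and 1.47 in WT stage 3 and 8.52, 6.3 and 6.09 in *Med23*-deficient stage 2 (WT stage 3 against WT stage 2, -1.42 ± 0.24, adjusted p = 0.057). The deficient cells lay close to the range of WT stage 2 (-0.02 ± 0.19, adjusted p = 0.972). *Thy1* showed a different order: -0.59 ± 0.20 between the WT stages (adjusted p = 0.28) and -1.11 ± 0.09 in the deficient cells (adjusted p = 0.0301).

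*Gm13293*, 38.3 kb downstream of *Prkcq*, the gene of protein kinase C theta in T cell receptor signalling, was at 1.66, 2.97 and 0.79 FPKM in WT stage 2, falling to 0.0, 0.0 and 0.24 in WT stage 3 (-1.31 ± 0.32, adjusted p = 0.133). *Med23*-deficient stage 2 was at 1.05, 0.73 and 2.34, within or near the WT stage 2 range, and *Prkcq* itself differed by -0.38 ± 0.09 (adjusted p = 0.14).

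**Figure D3:**
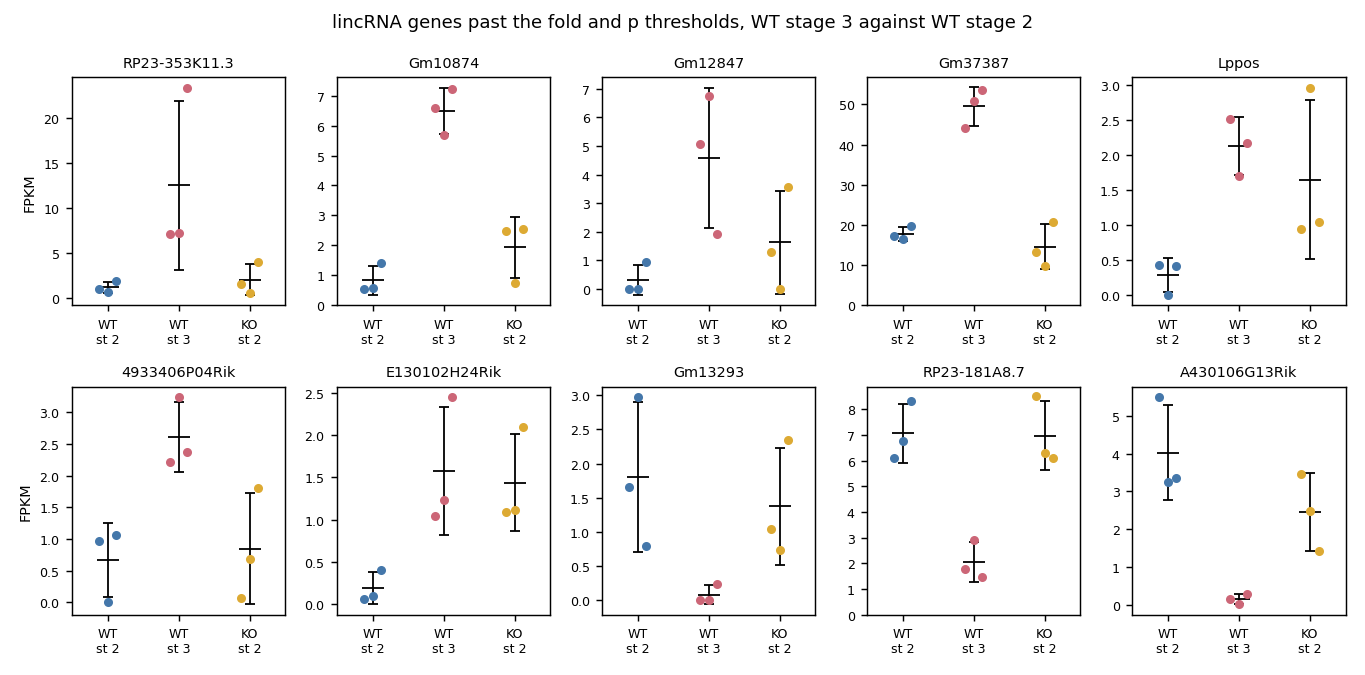
FPKM of the 10 lincRNA genes past a 2-fold change and p of at most 0.05 between WT stage 3 and WT stage 2; points are single libraries (KO is *Med23*-deficient), bars the mean ± SD (n = 3), and each panel has its own linear axis. The first 7 panels are higher in WT stage 3 and the last 3 lower, and in each the WT stage 3 points do not overlap those of WT stage 2.

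Before adjustment 21 of the 145 lincRNA genes (14.5%) had p of at most 0.05, against 18% of genes with a mean of at least 1. A further 11 lincRNA genes had such a p at under 2-fold, *AW112010*, *AU020206*, *Gm19585* and *Epb41l4aos* among them. A pair of these were picked after their values were seen. *4833403J16Rik*, 1.13 kb downstream of *Gimap5*, a GTPase gene needed for lymphocyte survival, was at 6.27, 4.69 and 4.49 FPKM in WT stage 2, against 9.96, 8.33 and 9.53 in WT stage 3 (0.75 ± 0.17, adjusted p = 0.107). *Gm26551*, antisense to *Ppp2ca*, went from 5.86, 7.17 and 5.03 to 2.84, 4.12 and 3.06 (-0.69 ± 0.21, adjusted p = 0.21), and was at 8.3, 6.93 and 9.64 in *Med23*-deficient stage 2.

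The comparison of *Med23*-deficient with WT stage 2 asks how these RNAs differ without the Mediator subunit in cells labelled with the same stage. The NK receptor genes *Klrb1c*, at 16.7 ± 9.30 FPKM in WT stage 2 and 3.42 ± 1.05 in the deficient cells (SD, n = 3), and *Klrd1*, at 9.49 ± 4.27 and 1.47 ± 1.11, differ between these groups, and their part in the lincRNA results was not tested. The *Med23* comparison uses the same WT stage 2 libraries as the comparison above, so these comparisons are not independent. Its deficient libraries were registered in a separate series of sample numbers from all WT libraries. Whether they were also prepared or sequenced apart is not stated, so such a difference and genotype cannot be told apart. 6 of the 145 lincRNA genes passed the fold and p thresholds, 4 higher and 2 lower in the deficient cells. That is 4.14% of the lincRNA genes, against 3.19% of all genes with a mean of at least 1, where 1.22% passed as higher and 1.96% as lower. Over all 20674 genes tested 2.11% passed. In 5 of the 6 a compared group had a mean under 1, so here too the filter favours genes that differ. The count was 10 without WT stage 2 replicate 3, and the Ballgown-style model lost *Gm10505* and *3110083C13Rik*. By adjusted p in limma 0 lincRNA genes passed, where 0.357% of genes with a mean of at least 1 did, and 11 (7.59%) had an unadjusted p of at most 0.05, against 12.8% of those genes; the Ballgown-style model also gave 0. The groups did not overlap for 18 lincRNA genes (12.4%), against 18.9% of genes with a mean of at least 1. The median log2 fold change was 0.08, against -0.05 for all genes with a mean of at least 1, and ranged from 0.0036 without *Med23*-deficient replicate 3 to 0.16 without WT stage 2 replicate 3. It was 0.0028 on the TPM scale, 0.17 with a pseudocount of 0.1 and 0.28 with the Ballgown-style model.

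*Gm37552* (chr1:136252671-136255846, minus strand) was nearly absent from WT cells and present in all *Med23*-deficient libraries. It was at 0.63, 0.0 and 0.08 FPKM in WT stage 2, 0 in each library of WT stage 3, and 3.21, 3.9 and 6.73 in *Med23*-deficient stage 2 (2.17 ± 0.35, adjusted p = 0.0998). It lies 3.95 kb downstream of *Gpr25*, an orphan G protein-coupled receptor gene, on the same strand. *Gpr25* differed by 2.12 ± 0.28 in the same direction (adjusted p = 0.0638). These gene values did not separate a transcript running on from *Gpr25* from a lincRNA of its own. Leaving out any 1 of the 6 libraries gave log2 fold changes of 1.91 to 2.38 for *Gm37552*, all past the thresholds.

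Of the 2 decreases, *Gm42743* (chr3:96269721-96279001, plus strand) overlaps the histone H2B gene *Hist2h2bb* on the same strand and shares 226 of its 1511 exonic bases with it. It was at 6.2, 7.47 and 7.06 FPKM in WT stage 2, 5.76, 3.28 and 0.83 in WT stage 3 and 0.2, 1.31 and 2.02 in *Med23*-deficient stage 2. The deficient libraries were all below those of WT stage 2 (-1.96 ± 0.38, adjusted p = 0.156). *Hist2h2bb* was lower as well (-1.12 ± 0.19, adjusted p = 0.12), and the shared bases make the value of *Gm42743* uncertain.

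*Gm16001*, whose start faces that of *Ogfod2* across 33 bases, was at 1.68, 1.74 and 1.68 FPKM in WT stage 2 and 0.5, 2.95 and 2.23 in WT stage 3, but at 0.0, 0.0 and 0.48 in *Med23*-deficient stage 2 (-1.24 ± 0.22, adjusted p = 0.126). *Ogfod2* differed by -0.33 ± 0.46 (adjusted p = 0.817). *3110083C13Rik*, whose start faces that of *Micu2*, a regulator of mitochondrial calcium uptake, across 61 bases, was at 0.0, 1.62 and 0.0 in WT stage 2, 0.67, 1.09 and 0.45 in WT stage 3 and 1.71, 2.28 and 3.22 in the deficient cells (1.28 ± 0.45, adjusted p = 0.43). *Micu2* differed by 0.08 ± 0.21 (adjusted p = 0.913). The call of *3110083C13Rik* held in 2 of the 6 fits that leave out 1 library, with log2 fold changes of 1.05 to 1.74; it was lost without replicate 1 (1.05) or 3 (1.05) of WT stage 2 and without deficient replicate 2 (1.29) or 3 (1.11).

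*Gm10505* (chr17:27342460-27344825) was at 0.82, 1.33 and 0.3 FPKM in WT stage 2, 1.44, 0.73 and 1.43 in WT stage 3 and 3.65, 3.87 and 1.43 in *Med23*-deficient stage 2, the last a step above the highest WT stage 2 value (1.11 ± 0.39, adjusted p = 0.436). *Grm4*, a metabotropic glutamate receptor gene 77.6 kb away, differed by 2.60 ± 0.25 (adjusted p = 0.0312). The call of *Gm10505* was lost without WT stage 2 replicate 1 (1.13) or 3 (0.89) and without deficient replicate 1 (0.96) or 2 (0.93).

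*E130102H24Rik* was past both limits here too, at 1.09, 1.12 and 2.1 FPKM in the deficient cells beside the 0.06, 0.1 and 0.41 of WT stage 2 given above (1.02 ± 0.24, adjusted p = 0.211). Its call was lost without WT stage 2 replicate 1 (0.94) or 2 (0.97), without deficient replicate 3 (0.84), and on a TPM scale (0.98). Since both comparisons rest on the same low WT stage 2 values, the call in both is not a repeat. *Lppos*, just under the fold limit here, was at 0.94, 2.96 and 1.05 in the deficient cells (0.99 ± 0.34, adjusted p = 0.422), and it was past that limit without replicate 1 or 3 of WT stage 2 (1.07 each) or without deficient replicate 1 (1.17) or 3 (1.13).

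**Figure D4:**
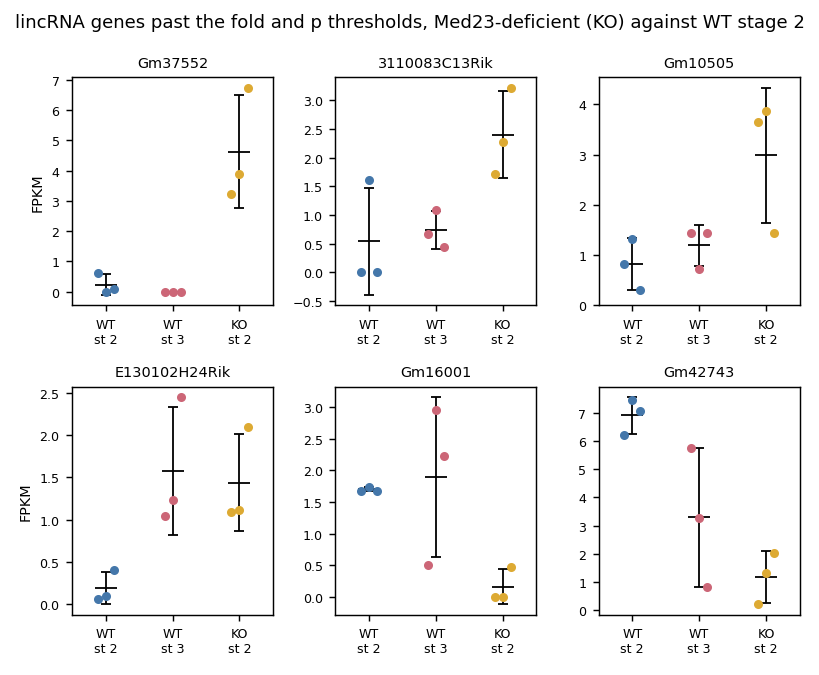
FPKM of the 6 lincRNA genes past a 2-fold change and p of at most 0.05 between *Med23*-deficient (KO) and WT stage 2; points are single libraries of WT stage 2, WT stage 3 and KO stage 2, bars the mean ± SD (n = 3), and each panel has its own linear axis. *Gm37552* is at 3.21 to 6.73 FPKM in the KO libraries and at most 0.63 in any WT library.

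Among the lincRNAs at 10 FPKM or more, *AI504432* and *A630023P12Rik*, picked after their values were seen, were higher in the deficient cells at under 2-fold. *AI504432*, 1.43 kb downstream of *Kcna3*, the gene of the Kv1.3 potassium channel of T cells, and on its strand, was at 8.38, 11.19 and 11.22 FPKM in WT stage 2, 12.48, 12.45 and 15.44 in WT stage 3 and 20.07, 17.92 and 24.16 in *Med23*-deficient stage 2. The 3 groups did not overlap, in that order (deficient against WT stage 2, 0.95 ± 0.17, adjusted p = 0.122). *Kcna3* differed by 0.85 ± 0.19 in the same comparison (adjusted p = 0.199). Here too a transcript running on from *Kcna3* was not told apart from a separate lincRNA. *AI504432* passed the 2-fold limit without WT stage 2 replicate 2 (1.01) or 3 (1.01) and without deficient replicate 2 (1.04). *A630023P12Rik* was at 12.56, 13.33 and 15.67, then 10.07, 15.8 and 15.4, then 21.28, 19.79 and 21.25, with the deficient cells alone above the rest (0.56 ± 0.11, adjusted p = 0.17).

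Most of the 145 genes lie close to a protein-coding gene. The nearest was within 5 kb for 83 genes and within 50 kb for 123, with a median gap of 3.27 kb. Starts faced each other for 43 genes, the lincRNA lay downstream on the same strand for 39 and upstream on the same strand for 21, ends faced each other for 17, and the gene bodies overlapped for 25, 17 of them on opposite strands and 8 on the same strand. The last 8 cannot be separated by strand. For the 39 downstream on the same strand, transcripts running on from the protein-coding gene were not told apart from separate lincRNAs.

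Differences of neighbours leaned the same way. For the 105 lincRNA genes within 50 kb of a protein-coding gene with a mean of at least 1, Spearman's rho between the log2 fold changes of the pair was 0.359 between the WT stages and 0.35 between the stage 2 genotypes. These are correlations across genes measured in the same libraries, and genes are not replicates. Without WT stage 2 replicate 3 the rho was 0.195 and 0.219, and with the Ballgown-style model 0.162 and 0.17. It was 0.383 and 0.478 for the 21 overlapping pairs and 0.335 and 0.32 for the 84 that lay apart. For 7233 protein-coding genes with a mean of at least 1 and their nearest such gene within 50 kb it was 0.108 and 0.0678. That set was not built like the lincRNA pairs. Its neighbours were sought only among genes with a mean of at least 1, and a pair could count in both directions. Gaps and overlaps were not matched, so the values are not like for like.

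Looking at single pairs, the nearest protein-coding gene with a mean of at least 1 was itself past both limits, in the same direction, for 2 of the 9 lincRNA genes called between the WT stages that had such a neighbour (*Gm10874* with *PVRIG*, *RP23-353K11.3* with *Ifngr1*), and for 0 of 116 lincRNA genes not called. In the *Med23* comparison it was 3 of 5 (*Gm37552* with *Gpr25*, *Gm42743* with *Hist2h2bb*, *Gm10505* with *Grm4*), and 4 of 120 for those not called, 1 of them in the same direction. *Gm42743* shares exonic bases with *Hist2h2bb*, and *Gm37552* lies downstream of *Gpr25* on the same strand. The genes of these pairs were not shown to be separate transcripts. Of all protein-coding genes with a mean of at least 1, 5.26% were past both limits between the WT stages and 2.62% in the *Med23* comparison. These counts take neighbours at any distance, and *Ifngr1* and *Grm4* lie beyond the 50 kb used above. The 4 called lincRNA genes that face or follow a protein-coding gene within 175 bases, *Gm12847*, *4933406P04Rik*, *3110083C13Rik* and *Gm16001*, had neighbours that did not pass.

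**Figure D5:**
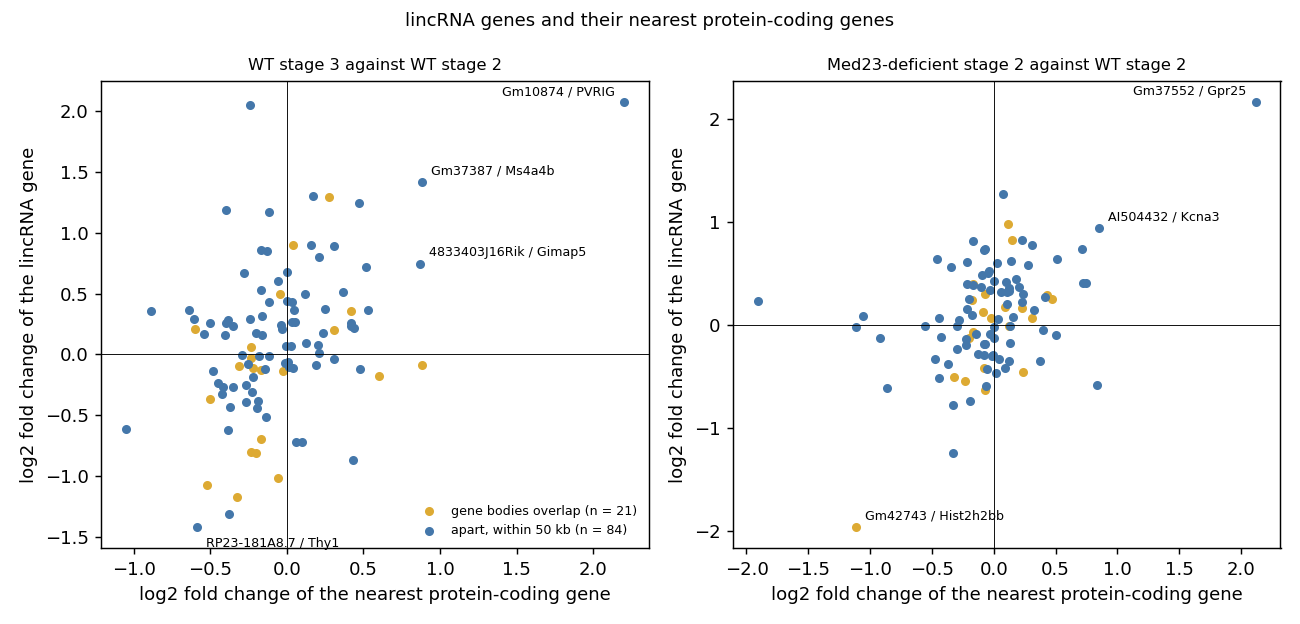
log2 fold change of each lincRNA gene against that of its nearest protein-coding gene, for the 105 pairs within 50 kb whose protein-coding gene has a mean of at least 1 FPKM, in both comparisons; yellow points are pairs whose gene bodies overlap (n = 21) and blue points pairs that lie apart (n = 84). *Gm10874* with *PVRIG*, *Gm37387* with *Ms4a4b* and *Gm37552* with *Gpr25* lie in the upper right, and Spearman's rho is 0.359 and 0.35.

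Some of the 145 genes are close to one another and can share reads: 7 pairs, made of 11 genes, lay within 10 kb. *E130102H24Rik* overlaps *0610043K17Rik* on the opposite strand, and between the WT stages they differed by 1.09 and -0.37 on the log2 scale. *Lncpint* and *Gm13834*, 5.65 kb apart on the same strand, differed by 0.54 and 1.76, and both missed the test. *Gm13834* was past the fold and p limits with a filter at a mean of at least 1, with all 9 libraries, and without WT stage 2 replicate 3 (2.29). Without WT stage 2 replicate 2 its log2 fold change was 0.85.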

How the data were processed

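RNA of thymic iNKT cells was sequenced in 9 libraries. According to the labels and methods, the authors prepared strand-specific total RNA libraries from low input, trimmed reads with Trimmomatic 0.36, aligned them to mm10 with HISAT2 and quantified genes with StringTie from reads hitting at most 2 loci. The values used are the FPKM the authors deposited for each library, without read counts, so depth is unknown and no counting interval can be given.

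log2(FPKM + 1) was tested with limma 3.58.1 in R 4.3.3 (eBayes with a mean-variance trend; tested on simulated data) on the 6 libraries of each comparison, over genes above 0 in at least 1 of them, with Benjamini-Hochberg adjustment over all genes. Log2 fold changes are given ± SE on this scale, which understates low genes. The trend gives the most abundant models wide errors (0.70 for *Gm26917* between the WT stages). Calls used the study's thresholds, 2-fold and p at or under 0.05 before adjustment, or an adjusted p of at most 0.05. Labels do not say that replicates are separate mice, so p-values measure the spread between these libraries. The methods call the data representative of 3 independent experiments, without saying how the replicate numbers relate to them. An exact permutation test of 3 against 3 cannot go below p = 0.1 and was not used.

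Neighbours were taken from protein-coding rows of the table by its mm10 coordinates, transcripts from GENCODE vM21, and promoters from RefSeq (GRCm38.p6). Named were listed lncRNAs, members passing a threshold (up to 10 in each direction), the 10 most abundant, those at the edge of the rule and the 5 with the largest spread. Members and lists were chosen with earlier results of these data known. The alternatives were another pseudocount, filter, scaling, trend, fit over 9 libraries, replicate block, a Ballgown-style linear model and leaving out each library. Every column of values matched a library.

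Replicate numbers are shared across groups. Deviations of same-numbered libraries correlated at 0.0845, 0.031 and 0.161 (WT stages) and 0.0346, 0.00429 and 0.144 (*Med23*), over genes with a mean of at least 1. Different-numbered libraries ranged from -0.117 to 0.0306 and from -0.0865 to 0.0501, so between the WT stages every same-numbered value was the higher. The main fits did not pair libraries. Of the same-numbered values, 0.161 and 0.144 were above the limit of 0.1 used for pairing and the others below it. Whether the numbers pair libraries was therefore not settled. Over the lincRNA genes alone the same-numbered values were 0.18, 0.0574 and 0.0799, and 0.154, 0.12 and 0.135, the last 3 all above the limit of 0.1 used for pairing. Different-numbered values over these genes reached 0.162 between the WT stages and 0.0174 in the *Med23* comparison. The blocked values are in the closing section.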

Additional observations from a re-analysis of the deposited data

How the results depend on the processing

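No lincRNA gene called in either comparison changed direction under any alternative. Of 138 values for the 10 genes called between the WT stages 131 kept their call, and of 82 for the 6 called in the *Med23* comparison 68 did; the others kept the direction and missed a threshold. The number of lincRNA genes past an adjusted p of 0.05, 3 between the WT stages, was 6 with a filter at a mean of at least 1 or without the trend, 5 with all 9 libraries, and 0 with the Ballgown-style model; in the *Med23* comparison it was 0, and 2 with the filter or with all 9 libraries. Leaving out 1 library gave 12 to 18 genes past fold and p and 0 to 1 past adjusted p between the WT stages, and 5 to 10 and 0 in the *Med23* comparison. With the replicate number as a block the counts past fold and p were 11 and 7, and past adjusted p 0 and 0 (over all genes 19 against 346 without the block, and 0 against 44); all 10 and all 6 genes kept their call by fold and p. Whether the numbers pair libraries was not settled, and in both comparisons the same-numbered correlations differed with the genes used. The median log2 fold change of the lincRNA genes, 0.16 and 0.08, was 0.25 and 0.17 with a pseudocount of 0.1, 0.0755 and 0.0028 on the TPM scale, 0.20 and 0.16 with upper-quartile scaling, and 0.18 and 0.28 with the Ballgown-style model. Over all genes with a mean of at least 1 it moved from -0.05 in both to -0.13 and -0.15 on the TPM scale. Leaving out 1 library moved it from -0.0063 to 0.14 and from 0.0036 to 0.16. The rho of neighbours was 0.162 and 0.17 with the Ballgown-style model, and 0.195 to 0.425 and 0.219 to 0.411 without 1 library. The cause was not tested. Depth is unknown, and changes of genes near 1 FPKM rest on few reads of unknown number.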
